A study of Homo sapiens with 2 samples.

Results

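The cluster of miR-183, miR-96 and miR-182 is a group of 3 microRNA (miRNA) hairpin genes, MIR183, MIR96 and MIR182, that lie one after the other on the minus strand of human chromosome 7. The 4 probe names followed here, of 718 on the array, are hsa-miR-183, hsa-miR-96 and hsa-miR-182, the main products of the hairpins, and hsa-miR-183*, the product of the opposite arm of the MIR183 hairpin. They were taken by exact name after the trailing probe number had been removed, a rule that uses no measured value. The RNA came from HepG2, a human hepatocellular carcinoma cell line. RNA of control cells was hybridised to 1 array, and RNA labelled as from cells exposed for 48 h to 10 nM TCDD (tetrachlorodibenzo-p-dioxin, which activates the aryl hydrocarbon receptor) to the second. The labels name no vehicle for the control cells, no culture and no replicate. Each group therefore has 1 array and 1 cell line, and no difference below has a test, a p-value or a replicate check.

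A miRNA is cut from a hairpin of its primary transcript, and one strand of the resulting duplex, the guide, is loaded into an Argonaute protein, while the other, written with a star in older names, is usually discarded. The seed, which is bases 2 to 8 of the guide, pairs with messenger RNAs and lowers their translation and stability. The 3 hairpins of this cluster are described as products of a shared primary transcript. The cluster is best known from sensory cells of the inner ear and retina, where it is abundant, and changes in the seed of miR-96 cause hearing loss in humans and mice. In epithelial tumours, liver cancer among them, its members are often described as raised, and FOXO1 and FOXO3 are known targets of miR-182, as EGR1 is of miR-183.

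The mature sequences are shown because the 3 main products have similar seeds, and because miR-183 and miR-182 resemble each other closely along their length. The second likeness bears on what the probes of miR-183 and miR-182 can tell apart. They are RefSeq sequences on GRCh38.p14, written 5′ to 3′ with the seed in capitals, and the names of all 6 arms of the 3 hairpins were matched.
miR-183 (5p arm): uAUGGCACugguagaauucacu
miR-96 (5p arm): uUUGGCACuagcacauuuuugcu
miR-182 (5p arm): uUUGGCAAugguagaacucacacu
miR-183* (3p arm): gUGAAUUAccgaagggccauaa
On the minus strand of GRCh38.p14, miR-183 lies at chr7:129774967-129774988, miR-183* at chr7:129774928-129774949, miR-96 at chr7:129774739-129774761 and miR-182 at chr7:129770447-129770470. In the direction of transcription miR-183 comes first, 205 bases separate its mature sequence from that of miR-96, and a further 4268 bases separate miR-96 from miR-182. No other gene of the RefSeq gene table overlaps the 3 hairpin genes. Their neighbours there are UBE2H on the higher-coordinate side and the long non-coding RNA LOC105375501 on the other.

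The seeds of the 3 main products are near copies that differ at 1 or both ends. Over bases 2 to 8, miR-96 has the base of miR-182 at 6 of 7 positions and that of miR-183 at 6 of 7, while miR-183 and miR-182 have the same base at 5 of 7. Over the whole alignment, seed included, it is miR-183 and miR-182 that are most alike. Aligned from the 5′ end without gaps, they have the same base at 18 of 22 positions (81.8%). The substitutions from miR-183 to miR-182, with positions counted from 1 at the 5′ end, are A2U, C8A, U17C and U22A. Of these, A2U and C8A lie in the seed. miR-96 has the same base as miR-183 at 13 of 22 positions (59.1%) and the same as miR-182 at 12 of 23 (52.2%). Whether the miR-183 and miR-182 probes each detect some of the other miRNA was not tested, and the probe sequences were not used here, so their values are not read as independent of each other. miR-183* has the base of miR-183 at 3 of 22 positions (13.6%).

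The only other human miRNA in the RefSeq table with the same bases 2 to 8 as a member is miR-1271-5p, which shares UUGGCAC with miR-96, and no probe name on the array matched it. No other miRNA in that table has the seed of miR-183, miR-182 or miR-183*.

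Of the 4 members, 3 gave a signal above the floor on both arrays, and all 3 were slightly lower on the array labelled TCDD. The floor is a fluorescence of 100 (6.64 on the log2 scale), which is 2 times the smallest value of the arrays. miR-183 had the largest difference of the 3, at 1.28-fold lower, and miR-182 and miR-183* were 1.12-fold and 1.11-fold lower. None reached the 2-fold size set for a call, and none reached 1.5-fold. Of the 242 names detected over the floor on at least 1 array, 2.89% lay at least 2-fold apart and 7.44% at least 1.5-fold apart. Differences below 0 made up 50.4% of the 242, and 3 probes of which 2 resemble each other are too few to be read against that share.

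hsa-miR-183 had a log2 fluorescence of 9.97 in control, against 9.61 on the array labelled TCDD. On the linear scale these are 1001 and 781 units, so the signal on the array labelled TCDD was 78.0% of that in control. The log2 difference was -0.36, and 23 of the 242 detected names had a lower one (9.50%). The robust SD of the differences over the 222 names detected on both arrays, a measure of spread between different miRNAs and not between replicates, was 0.28. miR-183 lay 1.29 such SDs from the median of all detected names, which was -0.003. In size, 49 names (20.2%) had a larger difference.

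hsa-miR-182, from the hairpin transcribed last, had a log2 fluorescence of 10.35 in control, against 10.18 on the array labelled TCDD, or 1302 and 1158 units. Its log2 difference of -0.17 lay inside the interquartile range of all detected differences, which ran from -0.18 to 0.19. Both values were over 10 times the floor, at 13.0 and 11.6 times, so the floor did not shape this difference.

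hsa-miR-183*, the opposite arm of the MIR183 hairpin, lay nearer the floor, with log2 values of 7.80 and 7.66 (223 and 202 units). These lie 2.23 and 2.02 times over the floor. Its log2 difference of -0.15 was also inside that interquartile range. The signals of different probes depend on the probes as well as on the RNA, so the order of brightness among miR-182, miR-183 and miR-183* is not an order of abundance.

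hsa-miR-96, whose hairpin lies between the other two, was not detected. Its probe had the smallest value of the control array, 5.64 (50 units). On the array labelled TCDD it had 6.07 (67.0 units). Both lie under the floor, so no fold is given, and the higher value on the array labelled TCDD is not read as a difference. Undetected here means that the signal did not exceed the floor with this probe, not that the miRNA was absent.

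**Figure D1:**
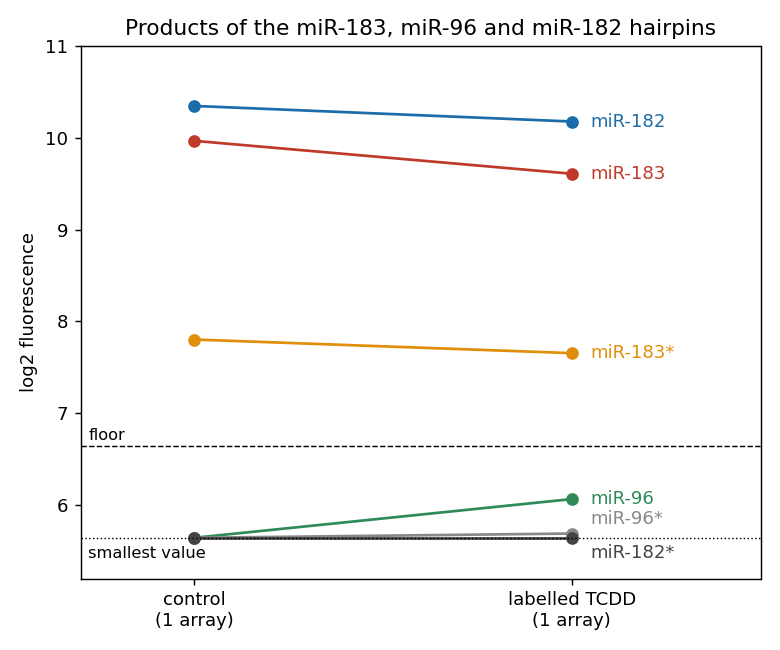
Log2 fluorescence of the 6 hairpin products of the cluster on the control array and on the array labelled TCDD, 1 array each, with a line joining the 2 values of each probe. miR-182, miR-183 and miR-183* lie above the floor (dashed) and slope down a little, from 9.97 to 9.61 for miR-183, while miR-96, miR-96* and miR-182* stay under it on both arrays. Heights of different probes are not comparable as abundance.

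The array also held the other opposite arms, miR-96* and miR-182*, and neither was detected. miR-96* had the smallest value, 5.64, in control, against 5.69 on the array labelled TCDD. miR-182* had 5.64 on both. The 3 hairpins thus gave signal from 3 of their 6 arms, both from MIR183, 1 from MIR182 and none from MIR96. The RefSeq hairpins of MIR182 and MIR96 are shown with both arms in capitals, 5p first, to place the detected miR-182 and the 3 undetected products.
MIR182: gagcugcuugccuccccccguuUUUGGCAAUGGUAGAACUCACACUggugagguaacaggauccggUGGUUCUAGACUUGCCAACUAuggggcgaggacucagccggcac
MIR96: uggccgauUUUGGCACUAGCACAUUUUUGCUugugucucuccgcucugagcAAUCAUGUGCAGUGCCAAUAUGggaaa
In the first of these hairpins only the 5p arm, miR-182, exceeded the floor. In the second, both arms lay under it.

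Seen against every detected small RNA, the cluster sat in the main body of the differences, a little below the centre. The median over its 3 detected members was -0.17, beside -0.003 over all 242. By brightness among all 718 names, where 1 is the brightest, miR-183 was at position 85 in control, against 91 on the array labelled TCDD. miR-182 was at 72 and 76, and miR-183* at 163 and 166. All 3 moved down by a few positions. Positions need no scaling between the arrays, but they restate the same values of the same arrays. The share of all names that moved down was not counted, so these moves are not read as a result. Differences also varied with brightness in general. Their median was 0.02 over the 55 names in the same level bin (1 of 4) as miR-182 and miR-183, and -0.13 over the 55 names in that of miR-183*, which was close to the -0.15 of miR-183* itself.

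**Figure D2:**
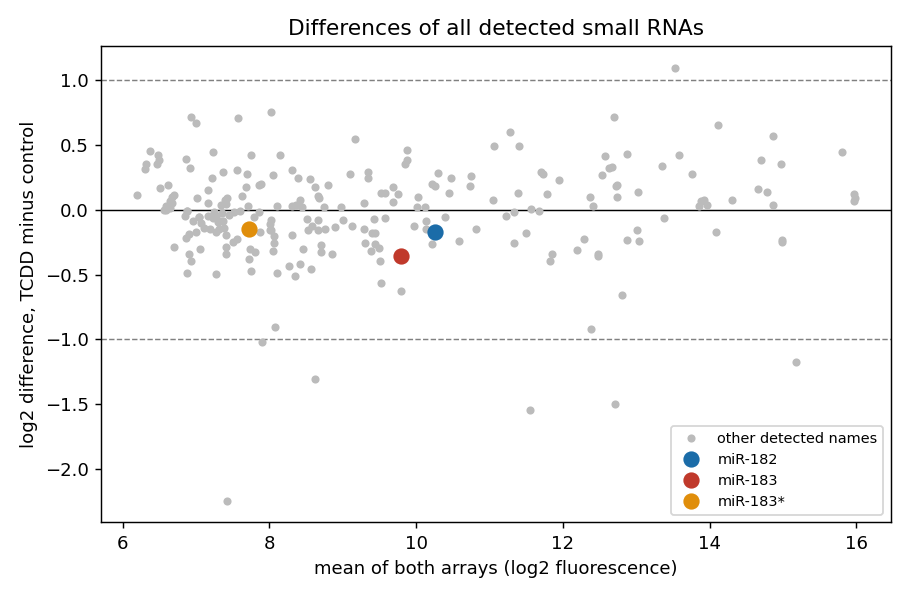
Log2 difference (array labelled TCDD minus control) against the mean log2 fluorescence of both arrays for the 242 detected names, with values under the floor raised to it for the difference. Grey points are single names, coloured points are the 3 detected members, and dashed lines mark 2-fold. miR-183 at -0.36, miR-182 at -0.17 and miR-183* at -0.15 lie below 0 and well inside the dashed lines.

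The 2 arms of the MIR183 hairpin are cut from the same molecule, so their differences can be set side by side. miR-183 differed by -0.36 and miR-183* by -0.15, a gap of 0.21 between the arms. Over the 46 hairpins with both arms detected, the median gap was 0.26 in size, and 26 of them had a larger gap than MIR183. The arms of 26 of the 46 hairpins differed in the same direction, and in 14, MIR183 among them, both were lower on the array labelled TCDD. Over all 242 detected names 50.4% were below 0, so unrelated names would also often share a direction. These counts are therefore not read as agreement between arms. The arms of MIR183 were thus about as close to each other as those of a typical hairpin on these arrays.

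**Figure D3:**
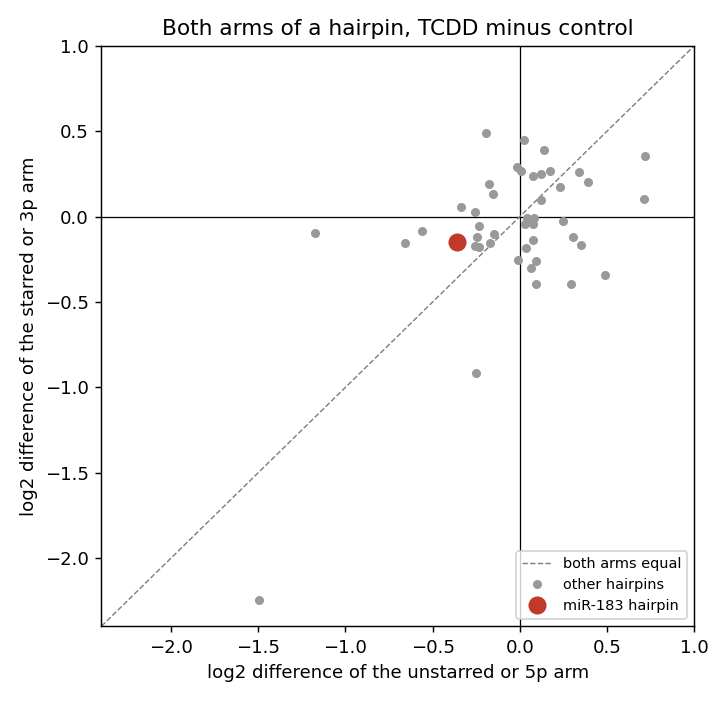
Log2 difference (array labelled TCDD minus control) of both arms of each of 46 hairpins, the unstarred or 5p arm on the x axis and the starred or 3p arm on the y axis, with values under the floor raised to it. The miR-183 hairpin (red) lies at -0.36 and -0.15, below 0 on both axes and near the line on which both arms are equal.

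The differences of miR-182 and miR-183, -0.17 and -0.36, lay 0.19 apart. To place that spread, detected miRNAs with a single gene in the RefSeq table were grouped where neighbouring genes on 1 strand started within 10 kb of each other. Of 171 detected names other than starred ones, 137 matched, and they formed 15 groups, 10 of them pairs. Among the 10 pairs the spread ran from 0.16 to 0.94 with a median of 0.28, and 8 pairs had a wider spread than miR-182 and miR-183. Both members were lower on the array labelled TCDD in 2 of the 15 groups, this pair and miR-425/miR-191, and all members were higher in 7. The likeness of the miR-182 and miR-183 sequences given above bears on this spread, and its part was not tested. miR-96, being undetected, does not enter it. Spreads between names that are not neighbours were not measured. The robust SD of the differences over the names detected on both arrays was 0.28. The spread of 0.19 is therefore not read as a trait of the cluster.

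**Figure D4:**
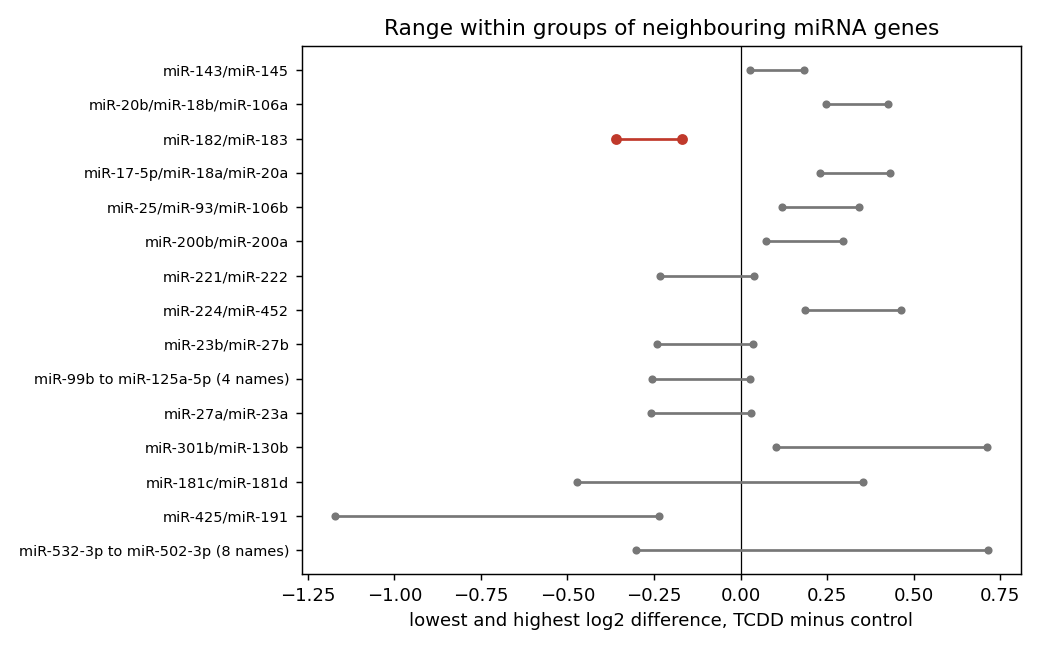
Lowest and highest log2 difference (array labelled TCDD minus control) within each of 15 groups of neighbouring miRNA genes, ordered by spread with the narrowest at the top. miR-182/miR-183 (red), from -0.36 to -0.17, is among the narrowest and lies wholly below 0.

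By distance in the plane of the 2 arrays' log2 values, the detected miRNA most like miR-182 was miR-27a (10.34 and 10.08, distance 0.09), followed by miR-28-3p (distance 0.19). The nearest to miR-183 was miR-146a, with 10.10 and 9.47 (distance 0.19), and then miR-27b* (distance 0.30). The nearest to miR-183* were miR-665 (distance 0.11) and miR-125a-3p (distance 0.13). With 2 arrays, such likeness describes brightness and 1 difference only.

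The epithelial miR-200 family had arms on both sides of 0, where the 3 detected members of the miR-183 cluster were all below it. Of its 5 unstarred names on the array 3 were detected, with differences of 0.07 for miR-200b, 0.13 for miR-200c and 0.30 for miR-200a. Of the starred arms, which were chosen after their values were seen, miR-200a* differed by -0.39 and miR-200b* by -0.14. Over all 9 arms of the family on the array 5 were detected, 3 above 0 and 2 below, none at 2-fold. Their median of 0.07 stands beside -0.17 for the miR-183 cluster, and with 1 array a group this contrast could not be tested. The 2 arms below 0 lay in the dimmest level bin, where 36 of 56 names were below 0. miR-200a and miR-200b lay in the brightest, where 19 of 56 were, and the part of brightness in the contrast was not tested. In a list of miRNAs described as raised in liver cancer, members of the cluster not counted, 12 were detected, and 9 of them had differences above 0 and 3 below, with a median of 0.16. Over all 242 detected names 50.4% were below 0, and in the brightest level bin, which holds most of the 12, 19 of 56 were. The list is too short to be read against these shares. The lowest was miR-30d at -0.36, level with miR-183, and the highest was miR-106b at 0.34. miR-132, one of a pair linked to the receptor that TCDD activates, had 6.97 and 6.76, a difference of -0.22 close to the floor, and its partner miR-212 was under the floor on both arrays.

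The 3 hepatocyte miRNAs checked against the label were detected, miR-122a dimly at 7.60 and 7.59, miR-192 at 13.88 and 13.96, and miR-194 at 12.34 and 13.06. Of 6 neural and sensory miRNAs, 1 was detected, miR-138 with 8.89 and 9.44. None of the 6 blood and 4 muscle miRNAs was. The fibroblast and smooth muscle miRNAs miR-143 (10.17 and 10.36) and miR-145 (12.39 and 12.42) were present on both arrays. Summed fluorescence was 745 in control and 994 with TCDD for the neural and sensory miRNAs, and 6535 and 6799 for the fibroblast and smooth muscle pair. All neural and sensory names but miR-138 lay under the floor, so the sums of that list are not read as a difference of the list. Their part in the values of the miR-183 cluster was not tested.

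How the arrays are scaled against each other decides the size of these small differences. With both arrays centred on the spliceosomal RNA RNU6B, a common reference whose own log2 values were 13.79 and 14.44, the difference became -1.01 for miR-183, which passes 2-fold, -0.82 for miR-182 and -0.80 for miR-183*. The same setting moved the median of all detected names by -0.61. Names at least 2-fold apart went from 6 lower and 1 higher of 242 detected to 22 lower and 0 higher of 228. Relative to that median the 3 differences were -0.40, -0.21 and -0.19. Their closeness to those of the deposited scale follows by construction, because 1 constant is subtracted and only names near the floor are affected otherwise. Centred on the mean of RNU24, RNU38B, RNU44 and RNU66, 4 small nucleolar RNAs that differed by -0.15 to 0.07, the members were at -0.32, -0.14 and -0.11. RNU6B was not alone among reference RNAs in being higher on the array labelled TCDD. 5S ribosomal RNA was higher by 0.57 and the small nucleolar RNU48, which had the highest value of that array, by 0.44, and neither was used for scaling. The references thus do not settle 1 scale. The 3 members were below 0 in all 9 settings run, and miR-183 was the lowest in each. Centring shifts the members by 1 constant, and neither dropping the floor nor the stricter floor touches them, so these settings cannot change the order. Only quantile normalization, lowess and the added floor could have changed it, and the order was the same in them.

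**Figure D5:**
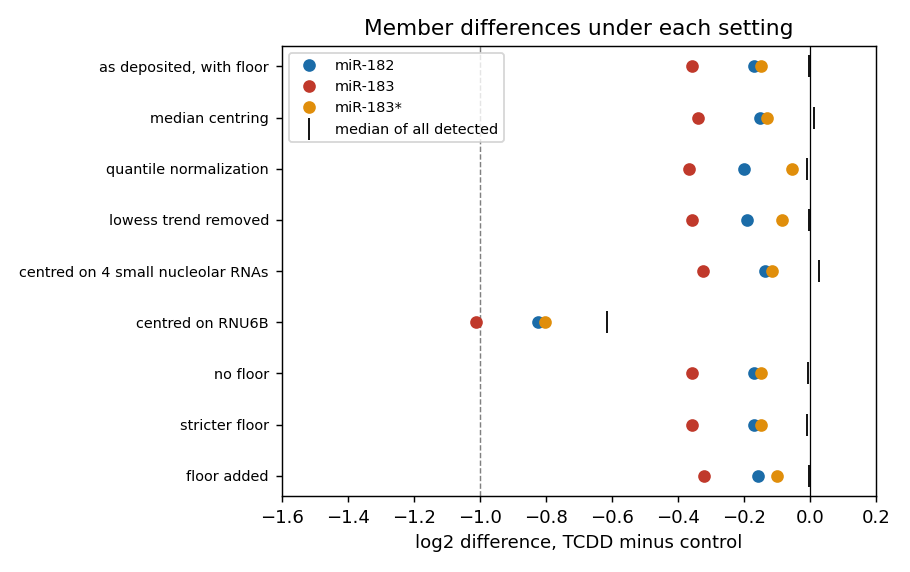
Log2 difference (array labelled TCDD minus control) of miR-182, miR-183 and miR-183* under each of 9 settings, with the median of all detected names as a vertical tick and 2-fold lower as a dashed line. The members keep their order, which only quantile normalization, lowess and the added floor could change, and stay to the left of the median. Under the other settings the members move by 1 constant or not at all. Their side of the median is then nearly fixed by construction. Centring on RNU6B moves the members and the median together, which takes miR-183 to -1.01.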

How the data were processed

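Total RNA was tagged by ligating an RNA linker with a dye, Cy3 on both arrays, per the labels' protocols. Per the series' design text, the other colour held unrelated samples, so the deposited log2 fluorescence values are of 1 channel. How the arrays were scanned, background-corrected and scaled is not given in the sources used here. A shared smallest value, 5.64, was shared by 343 names on the control array and 257 on the other.

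The 719 probes gave 718 names, the 2 probes of 1 name being averaged on the log2 scale. Of these, 670 were human miRNA names. Values under the floor (2 times the smallest) were raised to it, and control was subtracted from TCDD. Names above the floor numbered 227 on the control array, 237 on the other and 242 on either. The number of arrays limits the precision.

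The naming rule for the members uses no measured value, but the cluster, the lists and the settings were chosen with earlier results of these data known. Named miRNAs are the 4 members, the other arms of their hairpins, miRNAs with a member's seed, the 2 names nearest to each detected member, and the detected names of lists of up to 5 names or the lowest and highest of longer ones. miR-425/miR-191 and the cell type markers were named beside them. Older names were matched to RefSeq arms by hand. The alternatives were 5 scalings (median, quantile, lowess with fraction 0.5, 4 small nucleolar RNAs, RNU6B), a stricter floor (75th percentile), no floor, an added floor, and thresholds of 1.5-fold and 3-fold. The code was tested on simulated data. Python 3.11.15, numpy 2.4.6, pandas 2.3.3, statsmodels 0.14.6 and matplotlib 3.10.9 were used.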

Additional observations from a re-analysis of the deposited data

How the results depend on the processing

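Of all alternatives run, centring on RNU6B was the one that moved a result of the cluster by more than the robust SD between names, 0.28. It gave log2 differences of -0.82 for miR-182, -1.01 for miR-183 and -0.80 for miR-183*, a median of -0.82 over the members, and 1 member at least 2-fold apart in place of 0. By construction it shifts all names alike, before values under the floor are raised to it. Of the 228 names then detected, 22 lay at least 2-fold apart (22 lower, 0 higher), in place of 7 of 242 (6 lower, 1 higher). Without a floor 14 of 242 did. Under the other alternatives miR-183 stayed between -0.37 and -0.32, miR-182 between -0.20 and -0.14, and miR-183* between -0.15 and -0.06, its value nearest to 0 coming from quantile normalization. The gap between the arms of MIR183 stayed between 0.21 and 0.31, and the spread between miR-182 and miR-183 between 0.16 and 0.19. Centring cannot change either value by construction. The 3 detected members lie above both the floor and the stricter floor on both arrays, so the settings without a floor and with the stricter floor leave their differences as they were by construction. The added floor moved miR-183*, the nearest to it, to -0.10. No paired analysis was possible because there is a single array per group, which also leaves no replicate to drop. miR-96, miR-96* and miR-182* were undetected in all 9 settings, where the setting without a floor keeps the floor for detection, and the cause was not tested.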
